A study of Drosophila melanogaster with 6 samples.

Results

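The 10 genes described here are regulators of the identity and secretory capacity of the larval salivary gland (SG) of *Drosophila melanogaster*, and enzymes that modify proteins in its secretory pathway. They are the transcription factor genes *fkh*, *sage*, *CrebA* and *sens*, the gland fate genes *Scr*, *hth* and *exd*, and the enzyme genes *PH4alphaSG1*, *PH4alphaSG2* and *pip*. They were chosen by name, 10 of the 23932 entries of the deposited table, and all 10 passed the filter on low values (a minimum of 10, reached in 2 or more libraries), which left 11099 genes. In the embryo, the Hox protein Sex combs reduced (Scr) and its cofactors Extradenticle (Exd) and Homothorax (Hth) start the gland programme, which is then kept up by the forkhead factor Fkh and the bHLH factor Sage after *Scr* and *hth* have been turned off in the secretory cells. CrebA, a bZIP factor, raises the genes of the secretory machinery, the zinc finger factor Senseless (Sens) is needed for the survival of the gland cells, and the prolyl 4-hydroxylases and the sulfotransferase Pipe modify proteins on their way through the ER and the Golgi.

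Total RNA of SGs of wandering larvae of the third instar was sequenced in *w1118*, the control strain (replicates 1 and 4, n = 2 libraries), and in *de2f1b* (replicates 1 to 4, n = 4 libraries), a mutant that lacks the alternatively spliced isoform of the E2F activator gene *E2f1* that holds a microexon. All animals were kept on standard cornmeal medium at 25 °C, and no other allele, agent or treatment is named for either group. Other experiments of the study used the *de2f1b* allele both homozygous and over a deficiency, and which of these gave the sequenced glands, the sex of the larvae and the number of glands per library are not given in the sources used here. The mutant lacks the isoform in the whole animal. The labels call the libraries biological replicates.

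The values are normalized counts, the read count of a gene divided by 1 size factor per library. Reads on genes ranged from 56495956 to 94907006 per library, and 3 reads, the limit that a count of 0 allows (counting error only), were worth a normalized count of 2.35 to 4.11. Glue genes, which mark the larval SG, took 16.7% to 27.7% of the reads of every library. The libraries of a group stood apart from each other in RNA of other tissues. Ring gland markers summed to a normalized count of 2134 to 3015 in both controls and *de2f1b* replicates 1 and 2, but to 14795 and 20471 in *de2f1b* replicates 3 and 4. Among them *phm*, an enzyme gene of ecdysone synthesis, read 3.34 and 0 in the controls, 10.7 and 6.85 in *de2f1b* replicates 1 and 2, and 4061 and 4865 in replicates 3 and 4. Midgut markers summed to 11.9 to 138 in 4 libraries, but to 214660 in *de2f1b* replicate 1 and to 22158 in replicate 3, and of the markers of all other tissues *apolpp* of the fat body (log2 fold change 1.54, limma adjusted p = 0.043) and *eater* of the hemocytes (−1.49, adjusted p = 0.0439) were called. *E2f1* itself read 12544 and 18666 in *w1118*, and 12896, 10267, 9304 and 7190 in *de2f1b*, a log2 fold change of −0.66 (SE 0.27, adjusted p = 0.23, limma), and counts per gene cannot show its splicing. Because these are bulk samples, fewer cells of a type and less RNA per cell cannot be told apart.

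None of the 10 genes passed the test between the genotypes. By limma's moderated two-sided test on log2(normalized count + 1), with Benjamini-Hochberg adjustment over the 11099 genes tested, 0 of the 10 genes were called at an adjusted p under 0.05, where 4.24% of all genes tested were. At an unadjusted p under 0.05 there were 4 of the 10, *sage* and *CrebA* with lower and *PH4alphaSG1* and *pip* with higher values in *de2f1b*, against 21.6% of all genes. All *de2f1b* libraries lay above both controls for 2 of the 10 genes, *PH4alphaSG1* and *pip* (17.4% of all genes), and below both for 4, *sage*, *CrebA*, *PH4alphaSG2* and *exd* (16% of all genes). With edgeR on the recovered whole reads 0 of the 10 were called, and with DESeq2 1, *PH4alphaSG1*, where DESeq2 called 14.8% of all genes. Their fold changes had a median of −0.22 on the log2 scale, those of all genes tested 0.02.

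**Figure D1:**
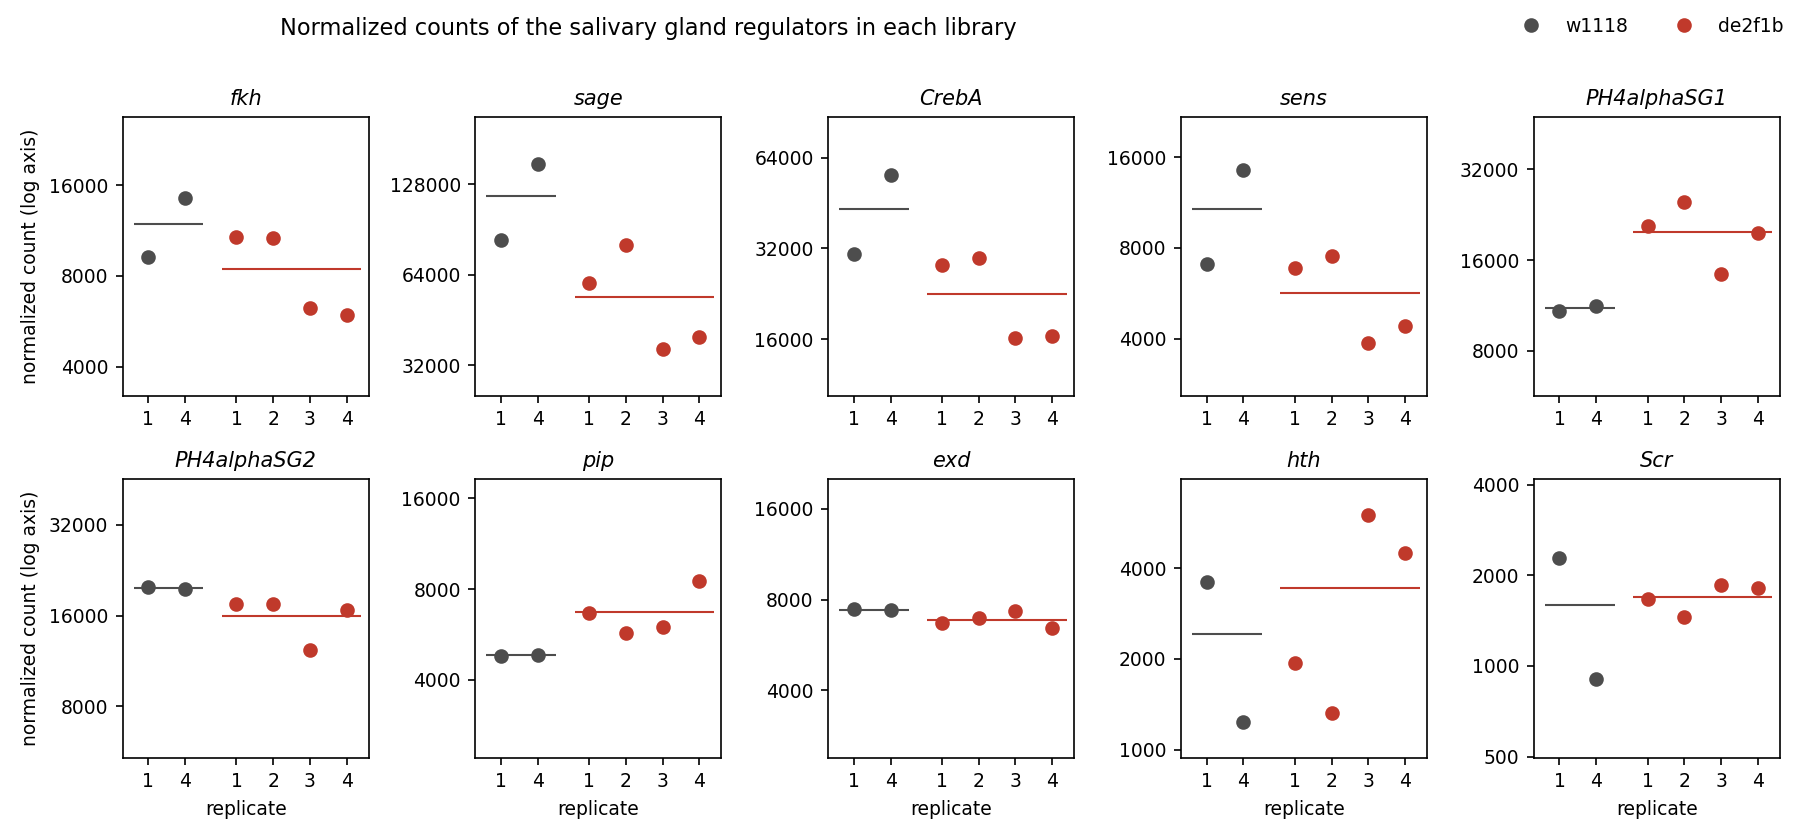
Normalized counts (log axes, all panels spanning the same fold range) of the 10 genes in each library, *w1118* in grey (n = 2) and *de2f1b* in red (n = 4), with the mean of each group as a line. *sage*, *CrebA*, *sens* and *fkh* were higher in *w1118* replicate 4 than in replicate 1 and lowest in *de2f1b* replicates 3 and 4, while *PH4alphaSG1* and *pip* read higher in all *de2f1b* libraries than in both controls.

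The 10 genes spanned a wide range of levels. Per kilobase of annotated exon, the mean normalized count in *w1118* was 81672 for *sage*, 11734 for *PH4alphaSG2*, 9642 for *CrebA*, 6472 for *PH4alphaSG1*, 4399 for *sens*, 2772 for *fkh*, 2240 for *exd*, 439 for *pip*, 348 for *Scr* and 204 for *hth*. Only the steps from *sage* to *PH4alphaSG2* and from *exd* to *pip* were larger than the SD of either neighbour, so the other neighbours in this order were not separated beyond their spread. In *de2f1b* the order per kilobase was *sage* (37895), *PH4alphaSG1* (11646), *PH4alphaSG2* (9489), *CrebA* (5030), *sens* (2312), *exd* (2075), *fkh* (1962), *pip* (614), *Scr* (371) and *hth* (291). Here *PH4alphaSG1* and *PH4alphaSG2*, the neighbours among *sens*, *exd* and *fkh*, and *Scr* and *hth* lay within their spread. *sage* thus held the highest level in both groups, at rank 117 of the 11099 genes per kilobase in *w1118* and at rank 185 in *de2f1b*, and *hth* the lowest, at ranks 6138 and 5652.

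The first set are the transcription factors that act in the secretory cells. *fkh* (FBgn0000659, chromosome 3R, 28580976 to 28585264, minus strand, 5 annotated transcripts, BDGP6.54) encodes the forkhead factor that maintains its own expression and that of many gland genes. It read 9271 and 14507 in *w1118* replicates 1 and 4, and 10741, 10728, 6243 and 5940 in *de2f1b* replicates 1 to 4. The groups overlapped, since *de2f1b* replicates 1 and 2 lay between both controls. The mean was 11889 ± 3703 (SD, n = 2) in *w1118* and 8413 ± 2684 (SD, n = 4) in *de2f1b*, with a log2 fold change of −0.52 (SE 0.34, 95% interval −1.33 to 0.29, limma adjusted p = 0.415).

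*sage* (FBgn0037672, chromosome 3R, 9262654 to 9264142, minus strand, 2 transcripts) encodes a bHLH factor found in the gland, which works with Fkh and with the broadly expressed partner Daughterless. It read 83693 and 149564 in *w1118*, and 60254, 80175, 36174 and 39850 in *de2f1b*. All 4 mutant libraries were below both controls, but *de2f1b* replicate 2 reached 0.958 of control replicate 1. The means were 116628 ± 46578 (SD) and 54114 ± 20348 (SD), a log2 fold change of −1.12 (SE 0.41, 95% interval −2.10 to −0.15, adjusted p = 0.187). It was −0.70 without *w1118* replicate 4, −1.54 without replicate 1 and −0.69 with *de2f1b* replicates 1 and 2 only, and its adjusted p lay between 0.051 and 0.798 over all 19 alternative settings. *da*, the partner gene, had a log2 fold change of −0.34 (SE 0.21, adjusted p = 0.385), with groups that overlapped.

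*CrebA* (FBgn0004396, chromosome 3L, 15535395 to 15553214, plus strand, 2 transcripts) read 30636 and 56104 in *w1118*, and 28221, 29751, 16122 and 16413 in *de2f1b*. Again every mutant library was below both controls, with *de2f1b* replicates 1 and 2 at 0.921 and 0.971 of control replicate 1 and replicates 3 and 4 at 0.526 and 0.536 of it. Its log2 fold change was −0.93 (SE 0.38, 95% interval −1.83 to −0.03, adjusted p = 0.218). It was −0.50 without *w1118* replicate 4, −1.37 without replicate 1, and −0.52 with *de2f1b* replicates 1 and 2 only.

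*sens* (FBgn0002573, chromosome 3L, 13396228 to 13401125, minus strand, 1 transcript) read 7070 and 14494 in *w1118*, and 6869, 7527, 3873 and 4395 in *de2f1b*. *de2f1b* replicate 2 lay above control replicate 1, so the groups overlapped. With these values the log2 fold change was −0.89 (SE 0.39, 95% interval −1.82 to 0.03, adjusted p = 0.245), and −0.38 without *w1118* replicate 4 and −1.41 without replicate 1. For *fkh*, the same removals gave −0.20 and −0.84, so that leaving out control replicate 4 moved the fold changes of these 4 genes by more than 1.5 times while their sign stayed negative in all 19 alternatives.

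These 4 genes kept the same order of libraries. Each was higher in *w1118* replicate 4 than in replicate 1, by 0.65 for *fkh*, 0.84 for *sage*, 0.87 for *CrebA* and 1.04 for *sens* on the log2 scale, and each was lower in *de2f1b* replicates 3 and 4 than in replicates 1 and 2. *PH4alphaSG1* had this order as well, with a gap of 0.05 between the controls, and so did 23.7% of all genes tested. Glue genes followed it too, as a share of all reads, at 18.0% and 26.4% in the controls, 24.9% and 27.7% in *de2f1b* replicates 1 and 2, and 17.3% and 16.7% in replicates 3 and 4. The summed ring gland, muscle, nervous system and imaginal disc markers ran the other way in the mutant libraries, and their part in the result was not tested.

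**Figure D2:**
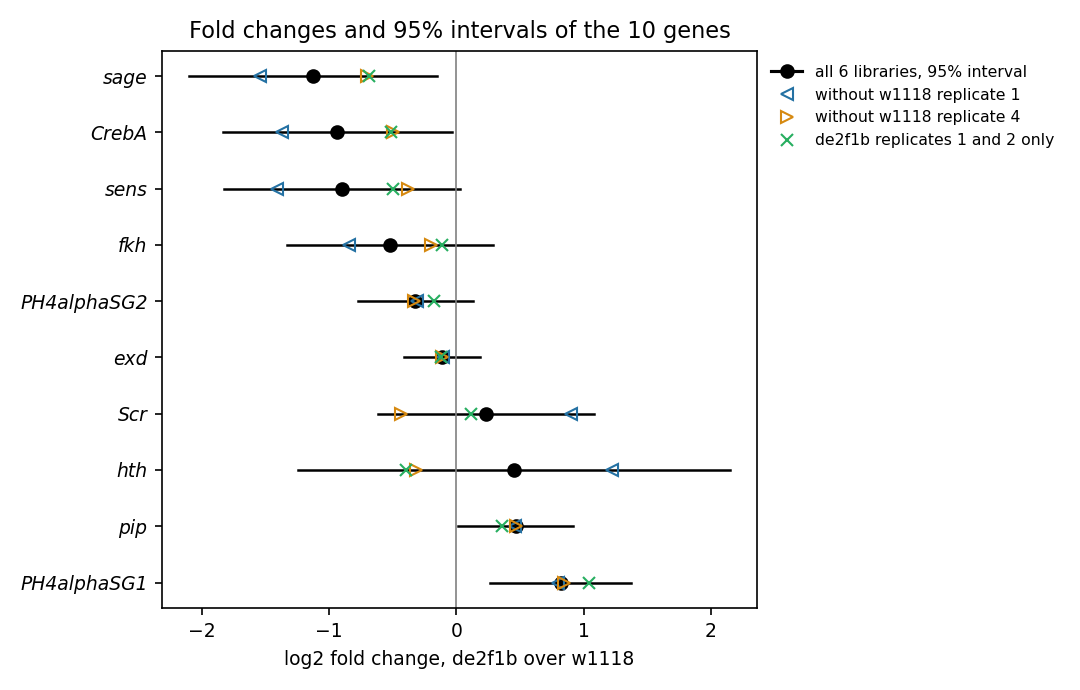
Log2 fold change (*de2f1b* over *w1118*) of the 10 genes with its 95% interval from all 6 libraries (black), and the value without *w1118* replicate 1 (blue), without *w1118* replicate 4 (orange) and with *de2f1b* replicates 1 and 2 only (green). The intervals of *sage* (−2.10 to −0.15) and *PH4alphaSG1* (0.27 to 1.37) lay clear of 0 before adjustment. Those of *CrebA* (−1.83 to −0.03) and *pip* (0.02 to 0.92) excluded 0 narrowly, and *hth* and *Scr* changed sign between the controls.

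When the levels were set against *fkh* within the same library, the differences between replicates of a group became smaller. Such ratios were chosen after the values had been seen and are given without a p-value for each of the 7 pairs of genes. The 15 assignments of 2 against 4 libraries allow no exact two-sided permutation p under 0.0667. The level of *sage* per kilobase was 27.1 and 31.0 times that of *fkh* in *w1118*, and 16.8, 22.4, 17.4 and 20.1 times in *de2f1b*, a log2 difference of −0.60. *CrebA* per kilobase was at 3.15 and 3.69 times *fkh* in *w1118*, and at 2.51, 2.64, 2.46 and 2.63 times in *de2f1b* (−0.41). *sens* per kilobase was at 1.33 and 1.75 times *fkh* in *w1118*, and at 1.12, 1.23, 1.09 and 1.29 times in *de2f1b* (−0.37). All mutant libraries lay below both controls in these 3 ratios, although the last 2 differed between the controls by more than between *de2f1b* libraries. *CrebA* to *fkh* was −0.53 without *w1118* replicate 1 and −0.30 without replicate 4. *sens* to *fkh* was −0.57 without *w1118* replicate 1 and −0.18 without replicate 4. *sage* to *CrebA* (log2 difference −0.19), *sage* to *sens* (−0.23) and *CrebA* to *sens* (−0.04) overlapped between the groups. Over all 6 libraries *CrebA* per kilobase stayed between 2.03 and 2.36 times *sens*.

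The enzyme genes behaved differently, with controls that lay close together. *PH4alphaSG1* (FBgn0051014, chromosome 3R, 30503665 to 30505661, minus strand, 1 transcript) encodes the catalytic alpha subunit of a prolyl 4-hydroxylase, an ER enzyme that hydroxylates proline in secreted proteins. It read 10879 and 11231 in *w1118*, and 20773, 24848, 14334 and 19612 in *de2f1b*, so that even the lowest mutant library was above both controls. The mean was 11055 ± 249 (SD, n = 2) in *w1118* and 19892 ± 4333 (SD, n = 4) in *de2f1b*, 1.80-fold higher. On the log2 scale the change was 0.82 (SE 0.23, 95% interval 0.27 to 1.37, limma adjusted p = 0.112). It was 0.97 without *de2f1b* replicate 3 (adjusted p = 0.0491) and 1.04 with *de2f1b* replicates 1 and 2 only (adjusted p = 0.0487), under scaling to 1 common total 0.97 (adjusted p = 0.0221), to a common total without the 50 most abundant genes 1.02 (adjusted p = 0.0224), under quantile normalization 1.07 (adjusted p = 0.0151), and in DESeq2 0.86 (adjusted p = 0.00745). In the other 13 alternatives it did not pass the threshold, and over all 19 the log2 fold change was positive, from 0.70 to 1.07.

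*PH4alphaSG2* (FBgn0039779, chromosome 3R, 30490074 to 30491987, plus strand, 1 transcript), a paralog that lies near *PH4alphaSG1* in a cluster of such genes, read 19903 and 19594 in *w1118*, and 17461, 17439, 12311 and 16669 in *de2f1b*. All mutant libraries were below both controls, and replicate 3 stood below the rest. Its log2 fold change was −0.32 (SE 0.19, 95% interval −0.78 to 0.13, adjusted p = 0.377). The value was −0.20 without *de2f1b* replicate 3 and −0.18 with *de2f1b* replicates 1 and 2 only, and it shrank to −0.17 with libraries scaled to 1 common total, to −0.12 with a common total without the 50 most abundant genes and to −0.11 under quantile normalization. Of its exon length 7.61% overlaps *PH4alphaMP* on the other strand, which read 28.8 to 364, and the use of strand in the counting is not given in the sources used here.

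The ratio of the paralogs is given as a description without a p-value, since it was among the ratios chosen after the values had been seen. Per kilobase, *PH4alphaSG1* was at 0.539 and 0.565 times the level of *PH4alphaSG2* in *w1118*, and at 1.17, 1.40, 1.15 and 1.16 times in *de2f1b*. All 4 mutant libraries were above 1 and both controls below it, a 2.21-fold difference (1.14 on the log2 scale). A ratio within a library does not depend on 1 scaling factor per library. It shows unequal change and not which of the pair changed. The reads of near-identical stretches could be split between paralogs, and how the counting treated reads with several matches is not given in the sources used here.

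**Figure D3:**
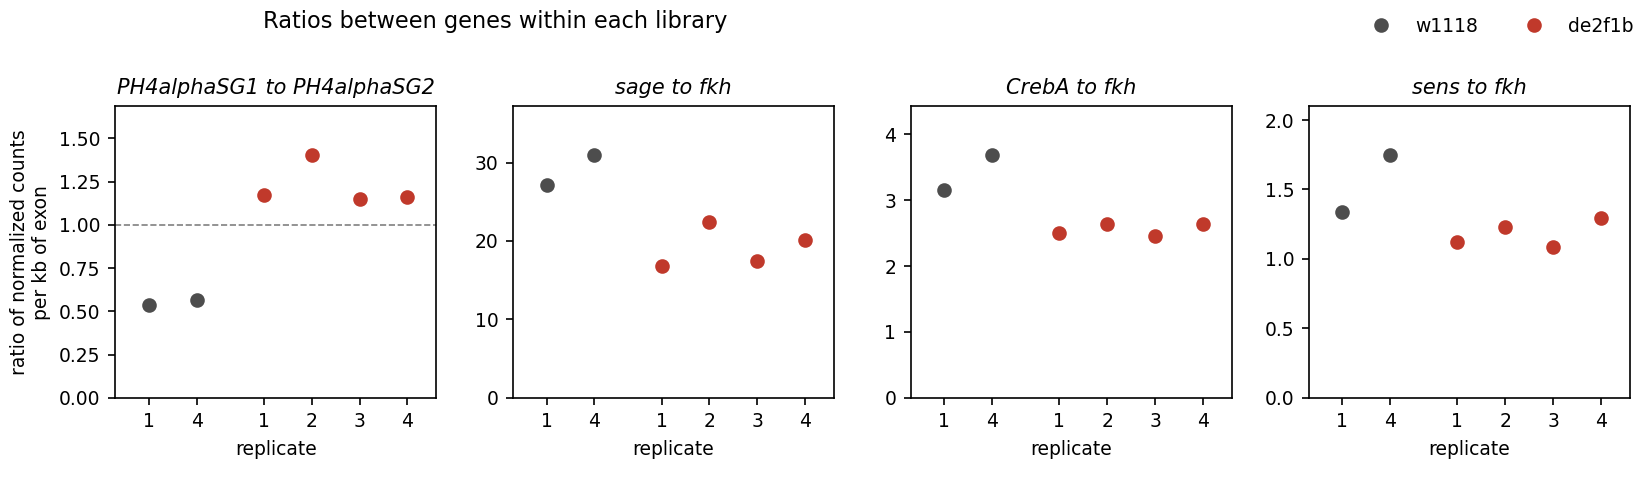
Ratio of the normalized counts per kilobase of exon of 4 pairs of genes within each library (axes from 0), *w1118* in grey and *de2f1b* in red, with a dashed line at equal levels in the first panel. *PH4alphaSG1* was at 0.539 and 0.565 times *PH4alphaSG2* in the controls and at 1.15 to 1.40 times in the mutant libraries, and *sage*, *CrebA* and *sens* were lower relative to *fkh* in all mutant libraries.

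The genes next to the paralogs on the chromosome did not share one pattern. *CG31371*, adjacent to *PH4alphaSG1*, read 14.2 and 11.9 in *w1118*, and 42.7, 39.7, 36.2 and 32.1 in *de2f1b* (log2 fold change 1.46, adjusted p = 0.141). *PH4alphaNE1*, the next gene on that side, was near the limit of detection in the controls (0.834 and 1.83) and at 6.33 to 16.0 in *de2f1b* (2.37, adjusted p = 0.164). On the other side *CG15539* read 175 and 212 in *w1118*, and 133, 162, 94.1 and 111 in *de2f1b* (−0.65, adjusted p = 0.306), and *CG34041* overlapped between the groups (−0.28). Next to *PH4alphaSG2*, *PH4alphaMP* overlapped between the groups (−0.39), and *Jon99Fi* and *Jon99Fii*, serine protease genes of the midgut, were at or below 28.8 and did not pass the filter. None of these genes was called.

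In a list of 8 other subunits and relatives of prolyl 4-hydroxylase, 0 of 6 genes tested were called, with 1 higher and 1 lower at an unadjusted p under 0.05 (limma). The list is not the whole family, and *CG31371*, *CG15539* and *CG34041* were not in it. The 6 listed genes had a median log2 fold change of 0.14 (all genes 0.02). Without *de2f1b* replicate 1 it was −0.18, over the 4 genes that then passed the filter. *PH4alphaNE2* and *PH4alphaNE3* did not pass the filter. *Pdi*, the disulfide isomerase that also serves as the beta subunit of the enzyme, read 335905 and 568908 in *w1118*, and 242366, 265932, 159809 and 184110 in *de2f1b*. Every mutant library was below both controls, with a log2 fold change of −1.07 (SE 0.38, adjusted p = 0.18), opposite in sign to *PH4alphaSG1*. *PH4alphaEFB*, the broadly expressed alpha subunit, had a log2 fold change of −0.06 (SE 0.20, 95% interval −0.54 to 0.41, adjusted p = 0.874). *PH4alphaPV* was at 0 in both controls, at 373 and 51.5 in *de2f1b* replicates 1 and 3, which also held the most midgut markers, and at 1.37 and 0.782 in replicates 2 and 4.

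*pip* (FBgn0003089, chromosome 3L, 19298623 to 19337609, minus strand, 11 transcripts) encodes a family of Golgi sulfotransferases known from dorsoventral patterning of the egg and expressed in SGs. It read 4800 and 4835 in *w1118*, and 6674, 5737, 6004 and 8509 in *de2f1b*, so that all mutant libraries were above both controls. The log2 fold change was 0.47 (SE 0.19, 95% interval 0.02 to 0.92, limma adjusted p = 0.22), and it lay between 0.35 and 0.67 over the alternatives, none of which brought the adjusted p under 0.105. Its isoforms carry different catalytic exons, which counts per gene do not resolve, and 1.90% of its exon length overlaps *fal* on the other strand. *Papss*, which makes the sulfate donor PAPS, read 7978 and 8767 in *w1118*, and 12265, 12331, 9647 and 13378 in *de2f1b* (log2 fold change 0.50, SE 0.17, adjusted p = 0.168), also with no overlap. *sll*, which carries PAPS into the Golgi, had a log2 fold change of −0.13 (SE 0.22, adjusted p = 0.749), with groups that overlapped. Of 9 sulfation genes, 0 were called and 1, *Papss*, was higher at an unadjusted p under 0.05, with a median of −0.13 that turned to 0.13 without *w1118* replicate 4.

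The third set are the genes that set gland fate in the embryo. *exd* (FBgn0000611, chromosome X, 15992468 to 15996509, plus strand, 4 transcripts), the TALE homeobox cofactor that most tissues express, was the steadiest of the 10 genes with a coefficient of variation of 5.68% over all libraries. It read 7420 and 7374 in *w1118*, and 6676, 6964, 7308 and 6464 in *de2f1b*. All mutant libraries lay below both controls by a small margin. The log2 fold change was −0.11 (SE 0.12, 95% interval −0.41 to 0.19, adjusted p = 0.621), and it turned positive with libraries scaled to 1 common total (0.041), to a common total without the 50 most abundant genes (0.091) or by quantile normalization (0.085), settings in which the median of all genes was 0.18, 0.23 and −0.10.

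*hth* (FBgn0001235, chromosome 3R, 10507561 to 10639568, minus strand, 5 transcripts), which brings Exd into the nucleus, varied most, with a coefficient of variation of 62.2%. It read 3605 and 1236 in *w1118*, and 1937, 1326, 6002 and 4507 in *de2f1b*. The controls differed 2.92-fold and the mutant libraries 4.53-fold, and the groups overlapped. The log2 fold change was 0.45 (SE 0.71, 95% interval −1.25 to 2.15, adjusted p = 0.73), which became 1.22 without *w1118* replicate 1, −0.32 without *w1118* replicate 4 and −0.40 with *de2f1b* replicates 1 and 2 only.

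*Scr* (FBgn0003339, chromosome 3R, 6823120 to 6849981, minus strand, 5 transcripts), the Hox gene of the labial segment from which the gland arises, read 2284 and 904 in *w1118*, and 1670, 1453, 1852 and 1819 in *de2f1b*. Both controls enclosed all mutant libraries, which differed by 1.27-fold among themselves. Its log2 fold change was 0.23 (SE 0.35, 95% interval −0.61 to 1.08, adjusted p = 0.719), 0.90 without *w1118* replicate 1 and −0.43 without replicate 4.

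*hth* and *Scr* had the order of libraries opposite to that of *fkh*, *sage*, *CrebA* and *sens*. They were higher in *w1118* replicate 1 than in replicate 4 and higher in *de2f1b* replicates 3 and 4 than in replicates 1 and 2, as were 23.5% of all genes tested. The same order was seen in 8 of 8 imaginal disc and imaginal ring markers, 7 of 7 muscle markers, 7 of 8 nervous system markers, 4 of 5 markers of trachea and cuticle and 4 of 8 ring gland markers, but in 0 of 7 fat body, 0 of 6 hemocyte and 0 of 5 midgut markers. The imaginal markers, *ci* and *en* among them, summed to 5888 and 2236 in *w1118*, and to 3591, 3060, 10474 and 6283 in *de2f1b*, and none of them was at 0 in any library. Muscle markers summed to 42324 and 15991 in *w1118* and to 38160 to 152314 in *de2f1b*, again with none at 0, and nervous system markers to 4927 and 6011 in *w1118* and to 3726 to 8446 in *de2f1b*, with *VGlut* and *brp* at 0 in some libraries. The nervous system sum was thus lower in *w1118* replicate 1 than in replicate 4, against the order of 7 of its 8 markers. The part of these markers in the values of *hth* and *Scr* was not tested. *tsh*, a trunk gene that *hth* is known to act with, had a still wider range, with 1308 and 109 in *w1118*, and 156, 105, 1389 and 954 in *de2f1b*.

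**Figure D4:**
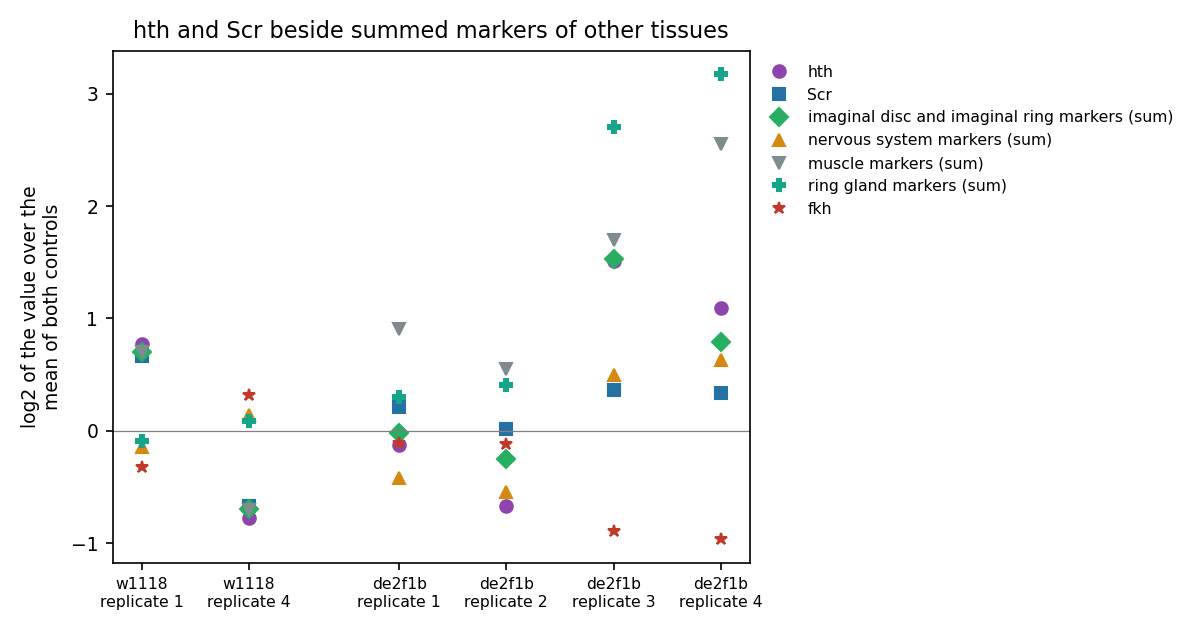
Log2 of the normalized count of *hth*, *Scr* and *fkh*, and of the summed counts of markers of 4 other tissues, over the mean of the log2 values of both controls, in each of the 6 libraries. *hth* lay on the same side of the control mean as the imaginal markers in every library, being high in *w1118* replicate 1 and in *de2f1b* replicates 3 and 4, where *fkh* was low.

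The 11 other Hox and TALE homeobox genes tested had a median log2 fold change of 0.94 (all genes 0.02), 9 with higher and 2 with lower values in *de2f1b*, and 0 were called, nor did any reach an unadjusted p under 0.05. *Abd-B* did not pass the filter. Without *w1118* replicate 4 the median was −0.06, with 6 genes lower and 5 higher, under quantile normalization it was 0.15, and with *de2f1b* replicates 1 and 2 only it was −0.02 over 8 genes. Their median relative to the mean of both controls was 0.99 and −0.99 in *w1118* replicates 1 and 4, and 0.34, −0.12, 2.00 and 1.29 in *de2f1b* replicates 1 to 4, so that this list too was high in the libraries where *hth* was. Of 13 other gland patterning and tube genes tested (*hkb* did not pass the filter), 0 were called, with 7 lower and 6 higher in *de2f1b*. Their median was −0.03, which was 0.12 with the same total and 0.04 without *w1118* replicate 1. *fog*, a secreted signal of epithelial invagination, read 2978 and 3864 in *w1118*, and 2734, 2479, 1783 and 1823 in *de2f1b*, all below both controls (log2 fold change −0.65, SE 0.24, adjusted p = 0.188). *eyg* and *toe*, paired-domain genes, overlapped between the groups (−0.50 and −0.61), and *trh*, a bHLH-PAS gene of the gland duct and of the tracheae, was nearly level (−0.03, SE 0.15). Among the genes with higher values, *rib* had the largest change of the list (2.92, SE 1.17, limma adjusted p = 0.218), above both controls in all mutant libraries. It was near the limit of detection in the controls (0.834 and 0.917) and at 5.48 to 72.4 in *de2f1b*. *crb* overlapped between the groups (0.31, SE 0.42).

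The largest set of genes known to depend on one of the 10 genes are those of the early secretory pathway, which CrebA controls. The list held 39 genes, all of which were tested (*Sec62* is *Trp1* in the table). Most code for components of the signal recognition particle and its receptor, the translocon, the signal peptidase and the COPI and COPII coats. The others are the SNARE genes *Bet1* and *Membrin*, the receptor gene *KdelR* and genes of the p24 family. All 39 had lower values in *de2f1b*, with a median log2 fold change of −0.69 (all genes 0.02), and 0 were called (4.24% of all genes). In 20 of them all mutant libraries were below both controls (16% of all genes). The same number reached an unadjusted p under 0.05, as did 21.6% of all genes in either direction. The fold changes ran from −1.40 for *Membrin*, a SNARE of ER to Golgi transport with the lowest adjusted p of the list (0.0571), to −0.10 for *Spase12*. The direction was kept by 37 of 39 genes under quantile normalization (median −0.42), by 38 with the same total (−0.54) and by 36 without *w1118* replicate 4 (−0.29). By library, the median of the 39 genes relative to the mean of both controls was −0.38 and 0.38 in *w1118* replicates 1 and 4, and −0.53, −0.39, −1.04 and −0.74 in *de2f1b*, so that *de2f1b* replicates 1 and 2 lay near control replicate 1, as for *CrebA*. The list was chosen when lower values of related ER genes in these libraries were already known, so it is not independent evidence of its direction.

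Glue genes, which code for the secreted glue that fixes the pupa, gave the only call in the 8 lists of related genes. Of 12 glue genes tested, 1 was called, *ng1*, one of the new glue genes. It read 4694 and 1809 in *w1118*, and 35924, 20203, 21021 and 45779 in *de2f1b*. All mutant libraries were above both controls, with a log2 fold change of 3.31 (SE 0.49, limma adjusted p = 0.0195). The value lay between 2.62 and 4.00 over the 19 alternatives, and the call was lost in 3 of them, among these without *w1118* replicate 4 (2.62, adjusted p = 0.15) and without *de2f1b* replicate 1 (3.21, adjusted p = 0.068). *ng3* read 224110 and 145794 in *w1118*, and 556731, 587053, 403983 and 633408 in *de2f1b* (1.57, SE 0.38, adjusted p = 0.0779). *ng2* read 11333 and 8913 in *w1118*, and 32211, 18208, 26686 and 42232 in *de2f1b* (SE of the log2 fold change 0.34, adjusted p = 0.0639), and *ng4*, a much lower gene, had a log2 fold change of 1.03 (SE 0.51, adjusted p = 0.3). None of these 3 genes was called, though in each all mutant libraries lay above both controls, and how reads were shared among similar copies of the family is not given in the sources used here. The glue list as a whole had a median of −0.05, with 7 genes lower and 5 higher, and without *w1118* replicate 4 it was 0.58, with 2 lower and 10 higher, and with *de2f1b* replicates 1 and 2 only 0.56. *Sgs3* was at −0.22 (SE 0.97, adjusted p = 0.912) and *Sgs4* at −0.04 (SE 0.81, adjusted p = 0.98), with controls that differed widely, 2661560 and 6100820 for *Sgs3*. Of the cell death genes that the gland programme holds down, *rpr*, repressed by Fkh in the larval gland, read 138 and 173 in *w1118*, and 300, 214, 163 and 108 in *de2f1b* (log2 fold change 0.24, SE 0.44, adjusted p = 0.768), and *hid* read 248 and 84.3 in *w1118*, and 167, 162, 669 and 371 in *de2f1b* (0.98, SE 0.72, adjusted p = 0.459). Both overlapped between the groups, and 0 of 4 genes of this list were called, *grim* not having passed the filter. The list also held *Diap1*, an inhibitor of cell death and so not a gene of the kind the list is named for. *Diap1* had a log2 fold change of −0.46 (SE 0.21, limma adjusted p = 0.261), with all mutant libraries below both controls. Among the ecdysone genes that time the loss of *fkh* at the end of larval life, 0 of 6 were called, *br* was at −0.12 (SE 0.35, adjusted p = 0.864), and *ftz-f1*, a nuclear receptor gene of the prepupa, read 298 and 258 in *w1118*, and 551, 437, 690 and 493 in *de2f1b* (0.95, SE 0.24, adjusted p = 0.0922), with no overlap. *ng2*, *ng3*, *ng4*, *tsh*, *fog*, *eyg*, *toe*, *trh*, *rib*, *crb*, *Diap1*, *ftz-f1*, *Membrin*, *Spase12* and *PH4alphaPV* were named after their values had been seen.

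**Figure D5:**
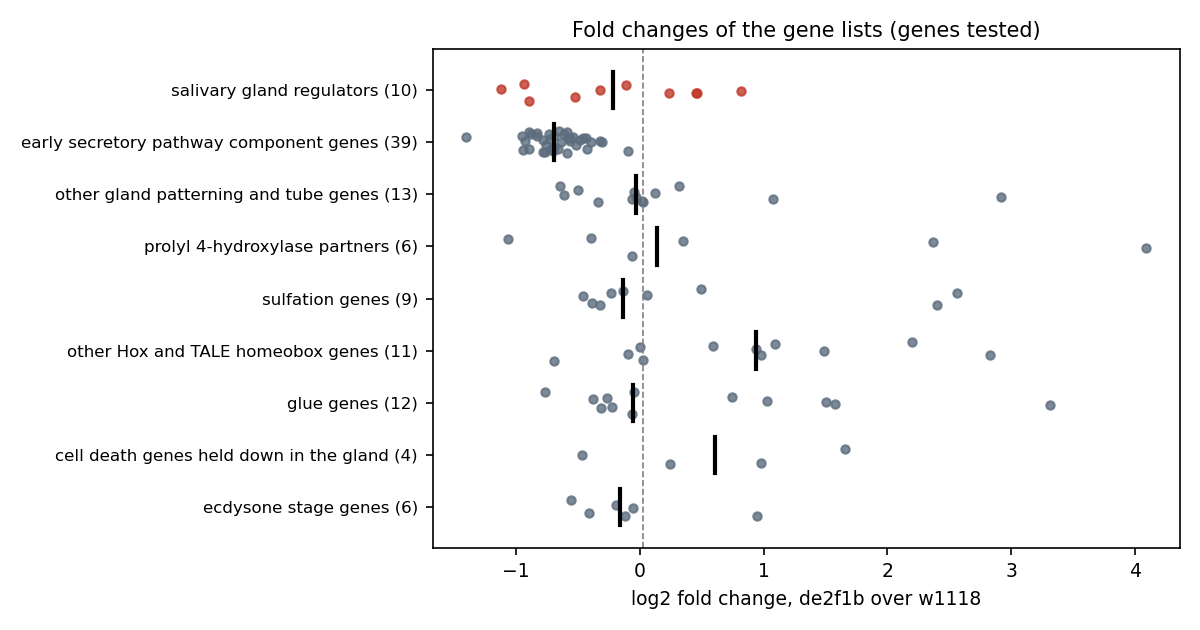
Log2 fold change (*de2f1b* over *w1118*) of the 10 genes (red, labelled salivary gland regulators, enzyme genes included) and of each gene tested in 8 lists of related genes (grey, number tested in brackets). A black bar marks the median of each list and a dashed line the median of all genes tested. The vertical position within a list is arbitrary. The list labelled cell death genes also holds *Diap1*, an inhibitor of cell death. All 39 early secretory pathway genes lay below 0 (median −0.69), while the 10 genes spread from −1.12 to 0.82.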

How the data were processed

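RNA-seq of SGs was analysed in 6 libraries, whose groups and replicate numbers come from the sample titles. Per the labels and the paper's methods, the authors checked paired-end reads with FastQC 0.11.8, aligned them to BDGP6 with STAR 2.7.6a, counted them per gene with featureCounts 1.6.0 and compared the genotypes with DESeq2. Each deposited value is a signal: reads on the gene over the library's size factor (the normalized count). Dividing by what 1 read is worth gave whole reads for 100% of the values in every library, within a tolerance of 1e-06. Columns of the authors' own comparison (mean, fold change, p-values) were not used.

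Genes that reached a normalized count of 10 in 2 or more libraries were tested with limma 3.58.1 (R 4.3.3, intensity trend) on log2(normalized count + 1), so fold changes of low genes are understated. Genotype was the only term, and calls were made at an adjusted p under 0.05. Alternatives were pseudocounts of 0.5 and 10, no filter, a mean of at least 100, 4 other scalings, no trend, the replicate block, tests of the recovered reads with DESeq2 1.42.0 and edgeR 4.0.16, leaving out each library, and *de2f1b* replicates 1 and 2 only. Positions and exon lengths are those of Ensembl release 115 (BDGP6.54). Python 3.11.15, pandas 2.3.3, NumPy 2.4.6, SciPy 1.17.1 and Matplotlib 3.10.9 were used for the rest.

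The 10 genes, the lists, the marker lists and the tests were chosen with earlier results of these data known. Symbols of 5 list genes that the table lacks were matched through RefSeq synonyms (*ng1* to *ng4*, *Trp1*). All 10 genes are named, with partner genes by known function, the genes next to *PH4alphaSG1* and *PH4alphaSG2*, and list or marker genes that were called. Promoter sequences were not used here, so the motif search that had been laid down was not run.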

Additional observations from a re-analysis of the deposited data

Results flagged for a closer look

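Each value was compared within the 4 *de2f1b* libraries by the gap between an extreme library and its nearest neighbour as a share of the whole range (Dixon's test at the 95% level). Of 65 quantities examined, 3 were past the critical value for 4 libraries, and chance gives 3.25. The normalized count of *PH4alphaSG2* in *de2f1b* replicate 3 (12311) lay below the other mutant libraries, with a gap of 0.867 of the range. The ratio of *PH4alphaSG1* to *PH4alphaSG2* in *de2f1b* replicate 2 lay above the others, with a gap of 0.893. The number of reads on genes in *de2f1b* replicate 4 lay above the others, with a gap of 0.916. With 2 control libraries the same comparison could not be made in *w1118*.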

How the results depend on the processing

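The number of genes called (471) was 279 without a filter, 287 with edgeR, 1644 with DESeq2, 7 with the replicate block, and 77 to 304 when a library was left out (77 without *w1118* replicate 4). Of the 10 genes 1, the enzyme gene *PH4alphaSG1*, was called with the same total, the same total outside the top 50 genes, quantile normalization and DESeq2. It was also called with *de2f1b* replicates 1 and 2 only and without *de2f1b* replicate 3, and 0 of the 10 genes were called when another *de2f1b* library was left out. Their median log2 fold change (−0.22) was −0.064 with the same total, −0.013 outside the top 50 genes and −0.012 under quantile normalization, and −0.33 to −0.17 when a library was left out. *Scr* turned to −0.43 without *w1118* replicate 4 (range −0.43 to 0.90), *hth* to −0.32 without *w1118* replicate 4 (range −0.32 to 1.22) and to −0.40 with *de2f1b* replicates 1 and 2 only, and *exd* to 0.041, 0.091 and 0.085 under the same total, the same total outside the top 50 genes and quantile normalization (range without a library −0.14 to −0.08). *fkh*, *sage*, *CrebA*, *sens*, *PH4alphaSG2* and *pip* kept their sign and passed the threshold in none of the 19 alternatives. The cause of these differences was not tested.

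Of the glue genes (1 called) 2 were called with a mean of at least 100, the same total, the same total outside the top 50 genes, quantile normalization and no trend (*ng1* and *ng3*), 3 with DESeq2, 0 with the replicate block and 0 to 2 when a library was left out. Lists with 0 calls gained some under DESeq2, 1 gland patterning gene (*rib*), 2 prolyl hydroxylase partners (*PH4alphaPV* and *Pdi*), 1 sulfation gene (*Papss*), 10 secretory genes and 1 ecdysone gene (*ftz-f1*). The same total gave 1 partner (*Pdi*) and 7 secretory genes, the same total outside the top 50 genes 1 sulfation gene (*Papss*) and 3 secretory genes (*Membrin*, *Sec61alpha* and *Srp9*), TMM scaling 1 secretory gene (*Membrin*), and quantile normalization 1 partner (*Pdi*) and 1 secretory gene (*Sec61alpha*). The ratios between genes were chosen after seeing the data, and those of *CrebA* and *sens* to *fkh* moved to −0.53 and −0.57 without *w1118* replicate 1 and to −0.30 and −0.18 without replicate 4.

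Only the numbers 1 and 4 are shared by the groups. Libraries of the same number deviated from their group means in opposite directions (correlation −0.32 and −0.36 across genes). With 2 controls the deviation of each mirrors that of the other, so the correlations are not separate checks. They cannot show whether the numbers pair the libraries. With the replicate block 0 of the 10 genes were called, *ng1* had a log2 fold change of 3.80 (limma adjusted p = 0.153), and *PH4alphaSG1* had a log2 fold change of 0.87 (adjusted p = 0.575). Only replicates 1 and 4 inform these fold changes, because the other *de2f1b* libraries have no control of the same number. The spread then rests on very few libraries, so a call lost there says little. With 1 control left, that library is assumed to vary like the *de2f1b* group. With 2 controls, 6 of the 10 genes differed by at least 0.6 on the log2 scale between them (34.7% of all genes), and 4 by under 0.05 (7.93% of all genes). The median gap of all genes tested was 0.39. Both limits were not laid down in advance and leave no gene of the 10 between them, so these shares are a description only. All 10 had at least 968 reads in every library (the lowest is *hth* in *de2f1b* replicate 2).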
